A study of Mus musculus with 11 samples.

Results

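Centromere-proximal peaks were the autosomal Xist pulldown peaks that started below 8 Mb on chromosomes 1 to 19 of the mouse genome build mm9. They were chosen by position alone, with no measured value in the rule, and numbered 133 of the 19818 peaks in the 6 deposited lists. The lists came from RNA antisense purification (RAP), in which biotinylated probes pull down a chosen RNA together with the crosslinked DNA around it, and that DNA is sequenced. The groups were female epiblast-like cells (EpiLCs) at day 4 (D4, 2 lists) and at day 2 (D2, 2 lists) of differentiation, female mouse embryonic fibroblasts (MEFs, 1 list) and male MEFs (1 list). EpiLCs were made from embryonic stem cells, kept in LIF with CHIR99021 and PD0325901 and then moved into Activin A and bFGF. MEFs were grown in serum medium without feeder cells. The labels state that no further agent was given to any group and name no strain or genetic change, and each list is 1 library. Nothing states whether replicates came from separate cultures, so their spread may be technical. The 3 EpiLC inputs carry no day, so D4 and D2 lists may share an input. The lists hold no expression values, so cell identity could not be checked against markers.

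Xist is the long noncoding RNA that spreads from its gene over 1 X chromosome of female cells, recruits silencing proteins and keeps that chromosome inactive. Mouse autosomes are acrocentric: the centromere and its satellite repeats sit at 1 end, where each assembled sequence begins after an unplaced stretch. Pericentromeric satellite DNA is packed as constitutive heterochromatin, and the unique sequence next to it is the first that reads can be placed on. Xist is normally silent in cells with 1 X chromosome, so the male MEF list of 326 peaks served as the control for pulldown background in fibroblasts. No male EpiLC list was analysed here.

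Mapped sequence was counted from 3 Mb to the last peak end of any list. The window from 3 to 8 Mb then made up 95 Mb of 2373 Mb, or 4.00%. Its share was lowest on the longest autosome at 2.58% and highest on chromosome 19 at 8.58%. Assembled bases were not counted, because no mm9 sequence or gene annotation was used here, and positions are therefore given without genes. The edge at 8 Mb lay in a gap between peak starts, but moving it further changed membership. D2 replicate 1 had 54 members at 8 Mb, 21 with the edge at 5 Mb and 174 with it at 13 Mb. The last member was a female MEF peak at chromosome 16, 7838216 to 7839367 (fold enrichment 2.87), and the first peak beyond the edge was a D2 replicate 1 peak at chromosome 8, 8401717 to 8403475 (fold enrichment 2.68). Fold enrichment is the authors' linear ratio of pulldown over the peak caller's background for that peak. Depth is unknown for all lists, since they carry no read counts.

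The centromere-proximal window held few Xist peaks in EpiLCs at either day. D4 replicate 1 had 7 of 1553 peaks there (0.451%, 95% Wilson interval 0.219 to 0.927%), and D4 replicate 2 had 4 of 1148 (0.348%, 0.136 to 0.892%). D2 replicate 1 had 54 of 8227 (0.656%, 0.503 to 0.855%), and D2 replicate 2 had 35 of 7544 (0.464%, 0.334 to 0.645%). All of these upper bounds lay below the 4.00% of sequence. Female MEFs had 25 of 1020 peaks in the window (2.45%, 1.67 to 3.59%), and male MEFs had 8 of 326 (2.45%, 1.25 to 4.77%). The intervals cover counting error only, and since peaks lie in groups they are too narrow.

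Called length gave a lower share than peak number in every female list. The window held 21.6 and 9.14 kb in D4 replicates 1 and 2, which was 0.268% and 0.166% of their called length. It held 161.5 and 130.8 kb in D2 replicates 1 and 2, or 0.209% and 0.235%. Female MEFs had 166.8 kb there (1.20% of 13.9 Mb), against 28.9 kb in male MEFs (5.94% of 0.486 Mb). The male list was thus the only 1 of the 6 whose length share exceeded the sequence share, and 76.0% of its window length lay in the first 0.1 Mb of chromosome 9. With the stretch from 3.0 to 3.1 Mb of chromosome 9 apart, the male list kept 4 of 322 peaks (1.24%, 0.484 to 3.15%) and 6.92 kb (1.49%). No female list had a peak in that stretch, so their values stayed as given.

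**Figure D1:**
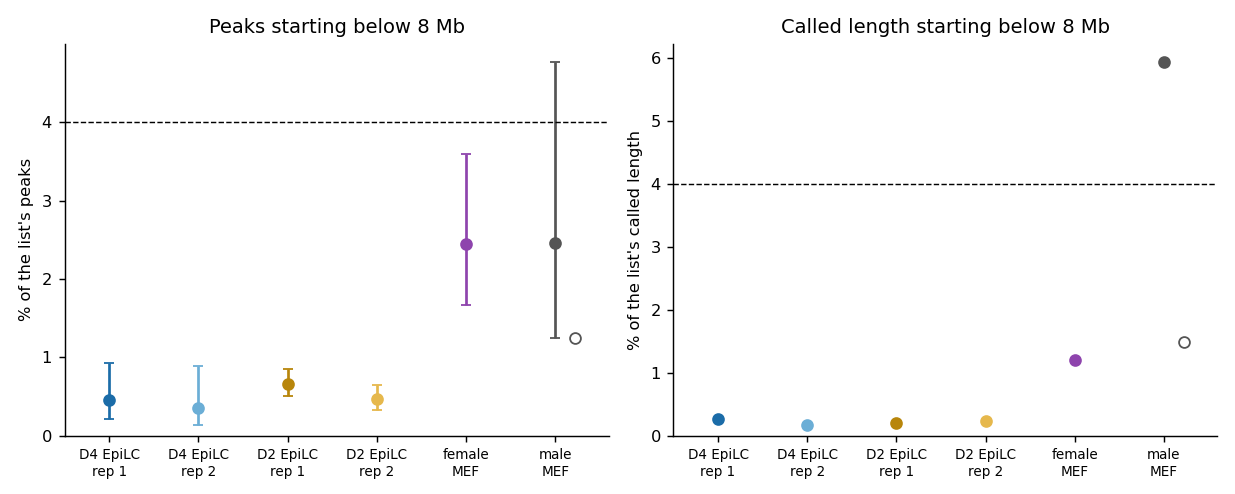
Share of each list's peaks (left, %) and of its called length (right, %) that started below 8 Mb, by library. Bars on the left are 95% Wilson intervals, the dashed line is the 4.00% of mapped sequence in the window, and the open circle is the male list without chromosome 9, 3.0 to 3.1 Mb. The 4 EpiLC lists lie between 0.348 and 0.656% of peaks, and the male length share drops to 1.49% at the open circle.

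With sequence counted from 3 Mb, peak density was lower in the window than in the rest of the chromosomes in 5 of 5 female lists. It was 0.0737 and 0.0421 peaks per Mb in the window against 0.679 and 0.502 in the rest for D4 replicates 1 and 2. For D2 replicates 1 and 2 it was 0.568 and 0.368 in the window against 3.59 and 3.30 in the rest. Female MEFs had 0.263 against 0.437 peaks per Mb, and male MEFs 0.0842 against 0.140. The ratio of window to rest was 0.0838 to 0.158 in the 4 EpiLC lists, 0.603 in the female MEF list and 0.603 in the male. Over the 5 female lists the mean log2 ratio was -2.67 ± 1.13 (SD, n = 5). The two-sided exact sign-flip permutation test gave p = 0.0625, which is the smallest that 5 lists allow and so cannot pass 0.05 (adjusted p = 0.0833 over 4 measures). With the male list included, the mean log2 ratio was -2.34 (exact permutation p = 0.0312, n = 6). That p-value is the smallest that 6 lists allow and was not adjusted over the 4 measures. The test also mixes the control with the female lists. With sequence counted on each chromosome only from the first peak of any list, the ratio was 0.149 to 0.282 in the EpiLC lists, 1.074 in the female MEF list and 1.075 in the male. The lower density then held in 4 of 5 female lists (mean log2 ratio -1.83, exact permutation p = 0.125, n = 5). This count removes sequence without peaks mainly from the window, so it raises the ratio by construction. The direction in female MEFs depends on how sequence is counted, and this count cannot decide it. Without the stretch of chromosome 16 from 5.2 to 6.0 Mb, which held most female MEF members, the mean over the 5 female lists was -3.64. The female MEF ratio was then 0.0723. Without the stretch from 3.0 to 3.1 Mb of chromosome 9, the male ratio was 0.302. The like ratios of the 2 MEF lists thus each rest on 1 stretch, on different chromosomes.

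Called length per Mb was also lower in the window than in the rest in 5 of 5 female lists. In the window it was 0.227 and 0.0962 kb per Mb in the D4 lists, 1.70 and 1.38 in the D2 lists, 1.76 in the female MEF list and 0.304 in the male. In the rest it was 3.52 and 2.41 kb per Mb in the D4 lists, 33.8 and 24.3 in the D2 lists, 6.02 in the female MEF list and 0.201 in the male. Over the 5 female lists the mean log2 ratio of window to rest was -3.77 ± 1.14 (SD, n = 5; exact permutation p = 0.0625, the smallest possible). The male ratio was 1.51, and 0.363 without the chromosome 9 stretch.

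The low density was not limited to the first 5 Mb. Along 11 successive windows of 5 Mb that all 19 autosomes reach, the window at 3 to 8 Mb held the fewest peaks in D4 replicate 2 and in D2 replicate 2. In D4 replicate 1 the window from 18 Mb held fewer (3 against 7), and in D2 replicate 1 the window from 13 Mb held fewer (40 against 54). In the next window, from 8 to 13 Mb, the lists held 21 and 15 peaks at D4, 120 and 132 at D2, 11 in female MEFs and 9 in male MEFs. From 13 to 18 Mb they held 11 and 7 at D4, 40 and 36 at D2, 5 in female MEFs and 3 in male MEFs. Female MEFs had 0 peaks from 18 to 23 Mb. The first window held 0.333 and 0.267 of the median window count in the D4 lists, 0.244 and 0.199 in the D2 lists, 2.27 in the female MEF list and 0.800 in the male. At the other end, the last 5 Mb before the final peak of any list held 367 and 282 peaks in the D4 lists, 873 and 823 in the D2 lists, 221 in the female MEF list and 37 in the male. That end was placed by a peak, so it holds at least 1 peak per chromosome in some list by construction.

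**Figure D2:**
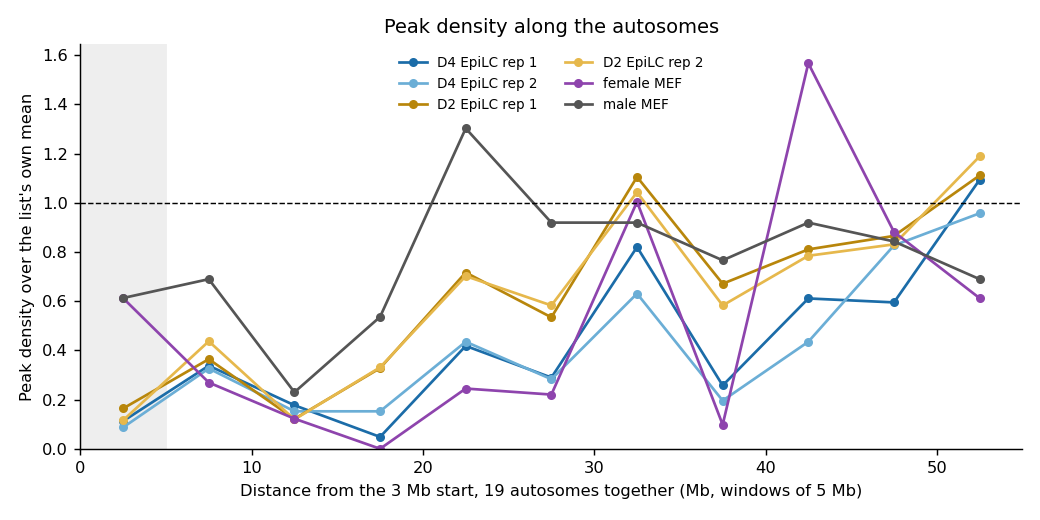
Peak density in windows of 5 Mb along the 19 autosomes together, divided by the list's own mean density (dashed line at 1), against distance from the 3 Mb start in Mb. The grey band is the window at 3 to 8 Mb, where the EpiLC lists lie between 0.087 and 0.164 of their mean and both MEF lists at about 0.61. In the EpiLC lists density stays below the mean up to a distance of 30 Mb.

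Chromosome by chromosome, most windows were empty. The 5 female lists had no member on chromosomes 1, 4, 9, 11, 13, 14, 15 and 18. Of these, chromosomes 1, 4, 13, 14 and 15 were empty in the male list as well. The first female peak began at 17404700 on chromosome 14, 13944571 on chromosome 9 and 13680707 on chromosome 13, which was 10.7 to 14.4 Mb into the mapped sequence. Chromosomes 9 and 11 had no D2 member, while D2 replicates 1 and 2 had 797 and 761 peaks on chromosome 9 and 579 and 543 on chromosome 11. Members lay on 4 and 2 chromosomes in D4 replicates 1 and 2, on 11 and 9 in D2 replicates 1 and 2, on 2 in female MEFs and on 5 in male MEFs. The median first peak of a chromosome was at 14.2 and 28.0 Mb in the D4 lists, 6.40 and 8.52 Mb in the D2 lists, 33.8 Mb in female MEFs (17 chromosomes with peaks) and 12.8 Mb in male MEFs.

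Chromosomes 16, 17, 19 and 7 carried most EpiLC members. At D4, chromosome 17 had 3 members in each list and chromosome 16 had 2 and 1, while chromosomes 7 and 8 had 1 each in replicate 1. At D2, chromosome 16 had 15 and 9 members, chromosome 17 had 11 and 9, chromosome 7 had 5 and 5, and chromosome 19 had 11 and 1. The replicates differed most on chromosome 19, where the window held 3.34% and 0.385% of that chromosome's peaks in D2 replicates 1 and 2, both below its 8.58% of sequence. Counts per chromosome in the D2 replicates correlated across 19 chromosomes with Pearson r = 0.830 and Spearman rho = 0.887, a description over chromosomes that share a library. Of the 19 chromosomes, 8 were at 0 in both.

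Few chromosomes reached their share of sequence. In both D4 lists chromosome 17 did so, with 3 of 22 peaks (13.6%) against 5.88% of its sequence. None of these members overlapped between the replicates, and 3 peaks are too few to set the share apart. In the D2 lists no chromosome reached its share, and chromosome 16 of replicate 1 came closest, with 15 of 298 peaks (5.03%) against 5.25%. Chromosome 17 followed with 11 of 235 (4.68%) and 9 of 203 (4.43%) in D2 replicates 1 and 2. In female MEFs only chromosome 16 exceeded its share. It had 24 of 29 peaks in the window (82.8%), and 93.3% of its called length. In male MEFs chromosomes 2, 9, 18 and 19 exceeded it, with 1 peak each except for 4 on chromosome 9, so that single peaks decided 3 of these 4.

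**Figure D3:**
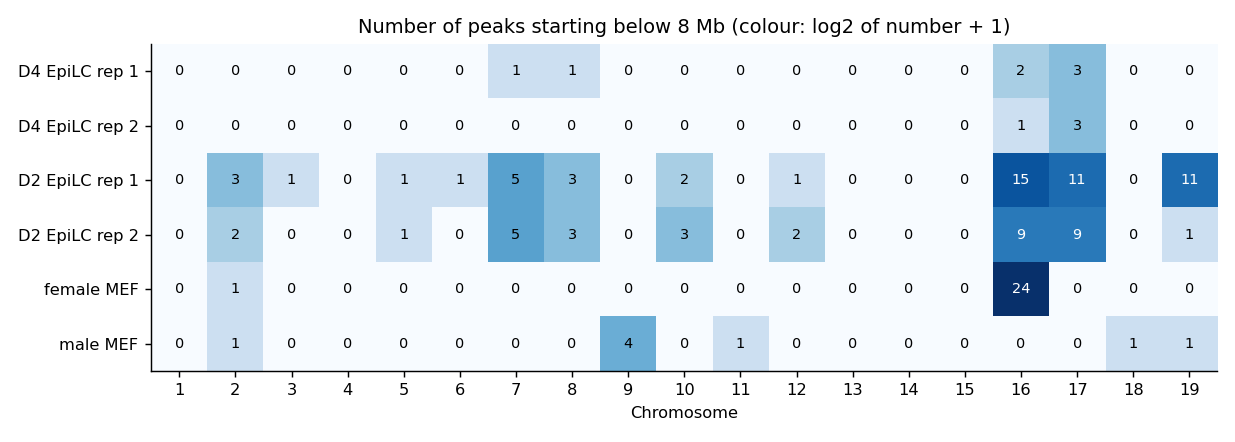
Number of peaks starting below 8 Mb for each library (rows) and autosome (columns), with colour as log2 of the number plus 1. Members gather on chromosomes 16 and 17 in the EpiLC lists, on chromosome 16 in female MEFs (24 of 25) and on chromosome 9 in male MEFs (4 of 8).

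The largest group of members lay on chromosome 16 between 5.2 and 6.0 Mb, a stretch delimited after the values were seen. It held 2 and 1 peaks in D4 replicates 1 and 2, 15 and 9 in D2 replicates 1 and 2, 22 in female MEFs and 0 in male MEFs. These were 28.6% and 25.0% of the D4 members, 27.8% and 25.7% of the D2 members and 88.0% of the female MEF members. They covered 2.36 and 2.24 kb at D4, 46.4 and 40.4 kb at D2 and 159.4 kb in female MEFs, which is 19.9% of the stretch. The female MEF peaks there ran from 5334426 to 5989035, with a median length of 5770 bp and fold enrichments between 2.77 and 3.14. Its longest were at 5500901 to 5527367 (26.5 kb), 5572983 to 5589805 (16.8 kb) and 5594891 to 5609854 (15.0 kb). Those of highest fold enrichment were at 5714078 to 5715590 (3.14), 5376099 to 5376412 (3.11) and 5351065 to 5356663 (3.096). Beyond 5.6 Mb the stretch held peaks of the female MEF list alone among the 6 lists.

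Without this stretch, female MEFs kept 3 window peaks of 998 (0.301%) and 0.0540% of called length, in place of 2.45% and 1.20%. The D4 lists then had 0.322% and 0.262% of peaks in the window and the D2 lists 0.475% and 0.345%. The other 3 female MEF members were at chromosome 2, 3959107 to 3961382 (fold enrichment 2.80), and chromosome 16, 3232531 to 3236512 (3.04) and 7838216 to 7839367. A single stretch of a single library therefore set the female MEF share, which has no replicate check.

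In EpiLCs the chromosome 16 group was partly shared. Its median fold enrichment in D2 replicates 1 and 2 was 2.69 and 2.76, near the 2.61 and 2.80 of peaks outside the window. D2 replicate 1 peaks there had fold enrichments between 2.46 and 2.92, and those of replicate 2 between 2.71 and 3.16. The longest of all D2 members, at 5527347 to 5542118 (14.8 kb, fold enrichment 3.16), was in replicate 2. Replicate 1 had shorter peaks at 5530488 to 5531133 (2.48) and 5536400 to 5541031 (2.85) inside it. D4 replicate 1 called 5531334 to 5533105 (2.89) and 5540680 to 5541268 (2.93) within the same interval, and female MEFs called 5536933 to 5545320 (2.94) over its end. D4 replicate 2 called 5517649 to 5519887 (2.72), inside the longest female MEF peak and over a replicate 1 peak of D2.

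Chromosome 17 between 5.2 and 6.0 Mb was the main site of D4 members, again delimited after the values were seen. D4 replicate 1 had peaks at 5329641 to 5332285 (2.90), 5583340 to 5586056 (2.70) and 5621085 to 5623687 (2.86). D4 replicate 2 had peaks at 5237575 to 5240027 (3.05), 5530798 to 5532998 (2.98) and 5594735 to 5596977 (2.86). None overlapped between the replicates, and gaps to the nearest peak of the other replicate ran from 8.68 to 89.6 kb. The D2 lists had 5 and 6 peaks in this stretch, also with no overlap between replicates, and only the D4 replicate 1 peak at 5621085 met a D2 peak. Both MEF lists had 0 peaks here.

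**Figure D4:**
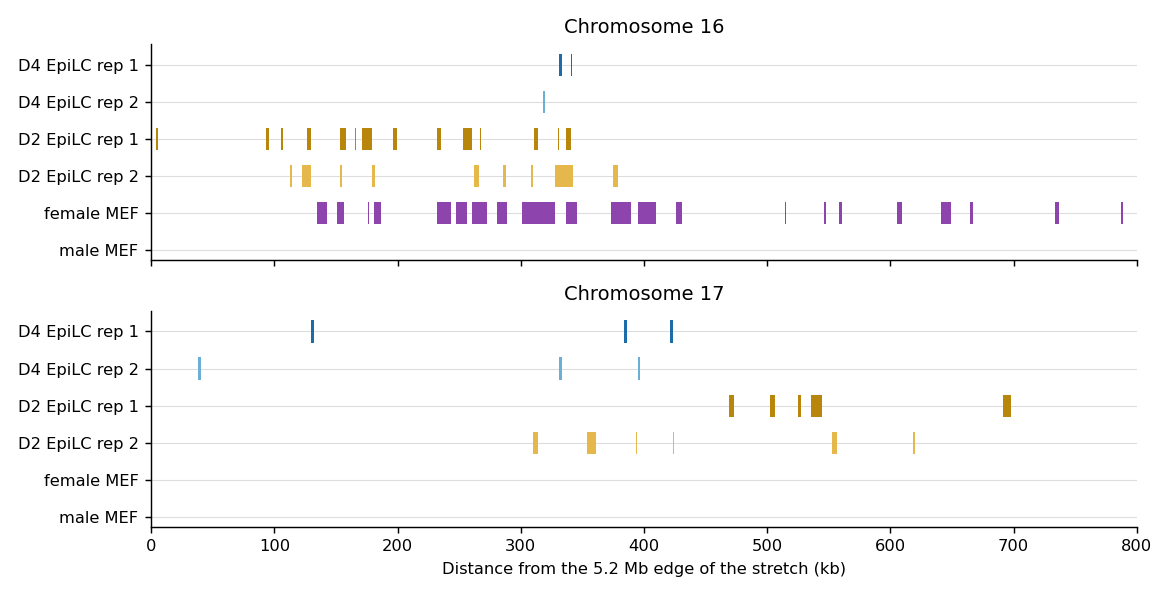
Peaks in the 5.2 to 6.0 Mb stretches of chromosomes 16 and 17 for each library (rows), drawn to scale against distance from the 5.2 Mb edge in kb. On chromosome 16 the female MEF list has 22 peaks between 5334426 and 5989035, and the male list has 0. The D2 peaks begin earlier, at 5203968 in replicate 1, and the last ends at 5578711 in replicate 2. On chromosome 17 the replicates of D4, and those of D2, do not overlap within a day.

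Replicates shared few centromere-proximal peaks. At D4, 0 of 7 members of replicate 1 overlapped a replicate 2 peak by at least 1 bp, against 22.2% of all its peaks, and 0 of 4 of replicate 2 did so, against 32.6%. With 7 and 4 members such counts are too small to set a share apart from the list's. At D2, 14 of 54 members of replicate 1 (25.9%) overlapped replicate 2, against 45.3% of all its peaks, and 13 of 35 of replicate 2 (37.1%) overlapped replicate 1, against 59.3%. Members and their lists were not tested against each other. The median gap to the nearest replicate peak was 24.1 and 30.9 kb for D4 members and 24.7 and 8.69 kb for D2 members.

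The members called in both D2 lists formed 14 segments of 27.4 kb in all on 8 chromosomes. Ranked by fold enrichment, the leading segment lay on chromosome 10 from 6403918 to 6406258, where replicate 1 reached 3.20 and replicate 2 reached 3.44. The next was a segment of 224 bp at chromosome 19, 3325258 to 3325481 (2.95 and 3.17). It was followed by chromosome 16, 5353058 to 5354595 (2.91 and 2.96) and 5536400 to 5541031 (2.85 and 3.16), and by chromosome 8, 4187005 to 4192853 (2.88 and 2.88). The longest was at chromosome 7, 4070378 to 4076484 (6.11 kb, 2.77 and 3.13). The chromosome 7 and 8 segments were also called by D4 replicate 1, at 4071301 to 4075143 (2.67) and 4186141 to 4193549 (2.63), and not by D4 replicate 2 or either MEF list. The replicate 1 peaks of highest fold enrichment outside these segments were at chromosome 6, 4697443 to 4698719 (2.94), and chromosome 16, 5292994 to 5295371 (2.92), and its longest was at chromosome 17, 5735642 to 5744200 (8.56 kb). No segment was called in both D4 lists, in all 4 EpiLC lists or in all 5 female lists.

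Between days and cell types the sharing was mixed. Of the D4 members, 5 of 7 in replicate 1 overlapped either D2 list, against 73.0% of all its peaks, and 1 of 4 in replicate 2, against 68.3%. Of the 25 female MEF members, 10 (40.0%) overlapped either D2 list, against 45.4% of all female MEF peaks, and 2 (8.00%) overlapped either D4 list, against 23.9%. All 10 lay in the chromosome 16 stretch. Seen from D2, 8 of 54 and 7 of 35 members of replicates 1 and 2 (14.8% and 20.0%) overlapped a female MEF peak, against 5.26% and 6.02% of all their peaks. Those members were again all on chromosome 16, so they stand for 1 place in the genome.

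The share of peaks in the window was lower at D4 than at D2. A permutation test of 2 lists against 2 cannot set the days apart, whatever the size of the difference. It averaged 0.400 ± 0.0723% at D4 and 0.560 ± 0.136% at D2 (SD, n = 2 each), a difference of -0.161 percentage points. Each D4 list lay below each D2 list, although D4 replicate 1 and D2 replicate 2 were only 0.451% and 0.464%. This order did not hold with lists cut to their 326 strongest peaks, where D4 replicate 2 and both D2 lists had 0.613%. Over the full lists, the exact two-sided permutation test gave p = 0.333, the smallest that 2 lists against 2 allow. The share of called length was 0.217 ± 0.0721% at D4 and 0.222 ± 0.0183% at D2 (SD, n = 2 each, exact permutation p = 1), and the groups overlapped. Its sign turned when D4 replicate 2 or D2 replicate 2 was left out. Relative to each list's density in the rest of the chromosomes, the window stood at 0.0962 ± 0.0175 at D4 and 0.135 ± 0.0330 at D2 (SD, n = 2 each, exact permutation p = 0.333).

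Members in female lists were somewhat shorter than the other peaks and of like fold enrichment. Their median length was 2645 and 2241 bp in the D4 lists, 2933 and 2623 bp in the D2 lists and 5106 bp in female MEFs, against 2884 and 2778, 3942 and 3564, and 5520 bp for the rest of each list. The mean log2 ratio was -0.28 ± 0.16 (SD, n = 5; exact permutation p = 0.0625, the smallest possible), and the direction was the same in 5 of 5 lists. The male ratio ran the other way (2507 against 994 bp), and with it included the mean log2 ratio was -0.01 (exact permutation p = 1, n = 6). The male median covers 8 members. Of these, 4 were the chromosome 9 peaks below 3.1 Mb, of 503 to 8391 bp, and the other 4 had 680 to 3344 bp. Median fold enrichment was 2.86 and 2.92 at D4, 2.63 and 2.78 at D2 and 2.94 in female MEFs, against 2.82 and 2.85, 2.61 and 2.80, and 2.90 for the rest (exact permutation p = 0.125, n = 5). The highest member fold enrichment was 2.93 and 3.05 at D4, 3.20 and 3.44 at D2 and 3.14 in female MEFs. The list maxima were 12.3 and 9.31, 14.1 and 11.8, and 6.43. A maximum rises with the number of peaks, so members and lists cannot be compared by it. Fold enrichments of at least 3 were held by 0% and 25.0% of members at D4, 1.85% and 11.4% at D2 and 24.0% in female MEFs. Over all peaks the shares were 15.3% and 17.2%, 4.40% and 13.6%, and 24.0%. Members of at least 10 kb numbered 0 and 0 at D4, 0 and 3 at D2 and 5 in female MEFs. Over all peaks such lengths made up 8.95% and 6.71%, 20.6% and 16.6%, and 30.5%.

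One D2 replicate 2 member stood apart from the others. The peak at chromosome 17, 3077823 to 3082449 had a fold enrichment of 2.07, the lowest of all 7544 peaks of that list, yet a −log10 q of 3.89 that ranked 28 in it. It was the only member in a female list with a −log10 q of at least 3. Over all peaks, 20 of 1553 and 13 of 1148 reached this at D4, 153 of 8227 and 95 of 7544 at D2. In female MEFs 4 of 1020 did. Such peaks were rare in every female list, so a count over this few members does not set them apart. No other list called the chromosome 17 peak.

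The strongest centromere-proximal peaks of the 6 lists were in the male control. Of its 8 members, 4 lay in the first stretch of chromosome 9, at 3000470 to 3007614 (fold enrichment 6.96), 3012313 to 3012815 (10.4), 3017150 to 3025540 (8.33) and 3032195 to 3038107 (3.44). These ranked 4, 2, 3 and 37 of 326 by fold enrichment and covered 21.95 kb of the stretch of 100 kb. As background, this start of chromosome 9 is known for satellite repeats and for very high signal in many sequencing assays. The other 4 male members had fold enrichments between 2.86 and 2.92 and lengths between 680 and 3344 bp. They lay at chromosome 2, 4512353, chromosome 11, 6390577, chromosome 18, 4016583 and chromosome 19, 5741187. None of the 8 male members overlapped a peak of any female list, against 45.1% of all male peaks. From the other side, 0 of 25 female MEF members overlapped a male peak, against 1.67% of all female MEF peaks. The same held for 0 of 54 and 0 of 35 members of D2 replicates 1 and 2, against 1.25% and 1.11%. A male list of 326 peaks can reach few members, and its lowest fold enrichment was 2.84.

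**Figure D5:**
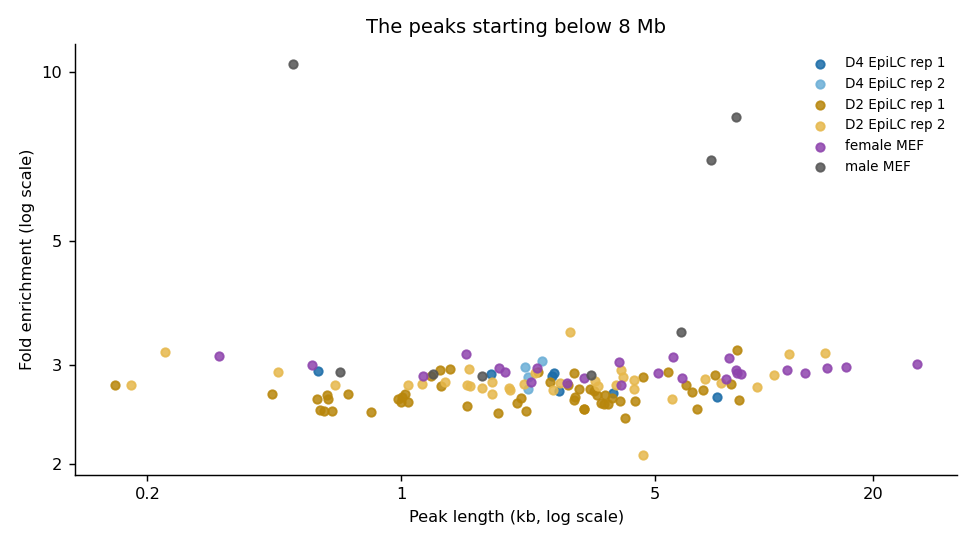
Fold enrichment against peak length in kb (both on log scales) for the 133 peaks starting below 8 Mb, coloured by library. Female members lie between 2.07 and 3.44, and the 3 highest points are male MEF peaks of chromosome 9 with fold enrichments of 6.96, 8.33 and 10.4.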

How the data were processed

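Peak lists of 6 Xist RAP-seq pulldowns were analysed, and the 5 inputs were not used here. The submitters' processing notes name MACS2 2.2.7.1, Bowtie2 2.2.9, bedtools 2.26.0, Trim Galore 0.4.1, Picard and SAMtools 1.9, with the build mm9. Tool settings are not given in the sources used here, nor is the input paired with a list. The deposited lists have 1 row per peak and 1 list per library. Start and end are positions in bp, and starts are printed counted from 1. The fold enrichment deposited by the authors is a linear ratio over background. Significance was deposited per peak as −log10 p-value and −log10 q-value. The deposited score was not used.

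Members, stretches and comparisons were chosen with earlier results of these data known. A peak belonged to the window by its start, and its whole length was counted. Peaks of a list never overlapped (shortest gap 4001 bp). Tests were exact permutation tests over libraries (SciPy 1.17.1, Python 3.11.15), adjusted by Benjamini-Hochberg over 4 measures where stated, and the script was checked on simulated lists. Many outcomes of the alternative settings were fixed in advance. Leaving out 1 of 2 lists keeps a group share within its spread whatever the values. Dropping the chromosome 9 stretch cannot change the share of a female list, since none has a peak there. Tests of 5 or fewer lists, or of 2 against 2, cannot fall below 0.05. A MEF length share comes from 1 list and has no spread. Densities used the mapped length defined in the report. No genes are named, since no mm9 annotation was used. The rule for named peaks took the 5 of highest fold enrichment and the 3 longest in the window of each list, the 5 leading segments called in both replicates, all chromosome 9 peaks below 3.1 Mb and the peaks nearest the edge. Not all are printed, and others, among them the chromosome 17 peak of lowest fold enrichment and further peaks of the chromosome 16 and 17 stretches, were named after their values were seen.

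The labels mark replicate 1 of both days as taken from an earlier deposit, so replicate numbers were taken to pair D4 with D2 lists. The difference between replicates at D4 and at D2 correlated over 1098 bins of 1 Mb (r = 0.227, Spearman rho = 0.145, across bins). Replicate 1 had more peaks at both days (1553 against 1148 and 8227 against 7544), which can give such a correlation without pairing. The correlation therefore cannot decide the pairing.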

Additional observations from a re-analysis of the deposited data

Results flagged for a closer look

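Relative to the rest of the chromosomes, female and male lists ran opposite ways for called length and for peak length in the window, and these differences were not tested. The log2 ratio of called length per Mb, window over rest, was -4.30 at D4, -4.23 at D2 and -1.78 in female MEFs, against 0.60 in male MEFs. The differences from the male list were -4.90, -4.83 and -2.37. The log2 ratio of median peak length was -0.22 at D4, -0.43 at D2 and -0.11 in female MEFs, against 1.33 in male MEFs, with differences of -1.55, -1.77 and -1.45. The 4 male peaks on chromosome 9 below 3.1 Mb move with this: without them the male ratio of called length was 0.363 in place of 1.51. The male ratio of median peak length without them is not given here. The male list is 1 library.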

How the results depend on the processing

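Over 20 results, 141 alternatives were run, 14 of them chosen after seeing the data. In 105, the direction and side of the threshold, or the value within its margin, stayed as reported. Many of these were fixed in advance (see processing), so the count does not measure stability. Depth is unknown, so none of this covers how many peaks deeper sequencing would call. With peaks of a −log10 q of at least 3, the window held 0% of peaks and of length at D4 and in female MEFs, 0.0912% of length at D2, and 11.5% of peaks and 36.9% of length in male MEFs. The single remaining D2 replicate 2 member then had 0% overlap with replicate 1. With lists reduced to their 326 strongest peaks, the D4 shares were 0.307% of peaks and 0.0895% of length. D4 replicate 1 then had 0 window peaks, and the other EpiLC lists 2 each (0.613%). With the edge at 5 Mb (1.60% of sequence) the shares of peaks were 0.0644% at D4, 0.207% at D2 and 0.196% in female MEFs, and of length 0.0699%, 0.0817% and 0.0451%. The male list then had 1.84% of peaks and 4.90% of length, both above the share of sequence. With the edge at 13 Mb (8.01% of sequence) they were 1.73% and 2.16% of peaks at D4 and D2 and 5.21% in male MEFs, and 0.994%, 1.38% and 9.98% of length. Without chromosome 9 at 3.0 to 3.1 Mb the male shares were 1.24% and 1.49%. Without all of chromosome 9 the length share was 0.253% at D2 and 1.58% in male MEFs. Without chromosome 16 at 5.2 to 6.0 Mb the shares of peaks were 0.292% at D4, 0.410% at D2 and 0.301% in female MEFs, the length shares 0.156% at D2 and 0.0540% in female MEFs, the D4 minus D2 difference in length share turned to 0.0261, and the log2 ratio of median fold enrichment turned to -0.0028. The alternative's own construction gives the smaller counts, and beyond that the cause was not tested. Leaving out 1 EpiLC list at a time gave D4 minus D2 differences of -0.257 to -0.0644 in peak share and -0.0563 to 0.0457 in length share (0.0457 without D4 replicate 2 and 0.00769 without D2 replicate 2). It gave 0.348 to 0.451% of peaks and 0.166 to 0.268% of length at D4, and 0.464 to 0.656% and 0.209 to 0.235% at D2. The log2 ratio of peak density was -2.67 to -2.44 in those fits, that of called length -3.72 to -3.55, that of median length -0.32 to -0.24 and that of median fold enrichment 0.013 to 0.023. With the male list included, peak density fell below 0.05 without adjustment (log2 -2.34, exact permutation p = 0.0312, the smallest that 6 lists allow). The other 3 measures did not fall below 0.05: called length gave -3.04 (exact permutation p = 0.0625), median length -0.01 (p = 1) and median fold enrichment 0.04 (p = 0.0625). With sequence counted from the first peak of a chromosome, the log2 ratio of peak density was -1.83 (exact permutation p = 0.125) and the female MEF ratio turned to 1.07. That count raises the ratio by construction. Over 1 Mb bins that hold a peak the log2 ratio was -1.95 and the female MEF ratio 0.993. With the replicate block, the D4 minus D2 differences were -0.161 and -0.00528 (exact sign-flip p = 0.5, the smallest that 2 pairs allow, and 1). Log2 ratios could not be computed at −log10 q of at least 3, with lists of equal number or at the 5 Mb edge, where a list had no member. At that −log10 q, D4, D2 replicate 1 and female MEFs had no member for overlap shares.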
